A study of Homo sapiens with 2 samples.

Results

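Sterol and fatty acid synthesis was examined through its genes in 2 RNA-seq libraries of human cells labelled HAL-01. The list holds 33 genes chosen by name for their role in the pathway, and they were found by matching Ensembl gene IDs to GENCODE 29 symbols. Of the 33 genes, 16 had a value in both libraries, 1 had a value in AG only and 16 had a value in neither, out of 16145 genes listed in either library. The 16 genes without a value were not analysed here and are not read as unexpressed. They were ACAT2, HMGCS1, PMVK, MVD, FDPS, LSS, MSMO1, NSDHL, HSD17B7, DHCR7, ACLY, FASN, ELOVL6, ELOVL5, SREBF2 and SCAP.

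The library labelled Control came from a culture labelled HAL-01, for which the sources used here give no treatment. The library labelled AG came from a culture labelled HAL-01 and kept for 24 h with 1,5-AG (1,5-anhydroglucitol, a relative of glucose) at 0.8 mM. HAL-01 is given in the labels as a single human line of pre-B acute lymphoblastic leukaemia. Each group had 1 library, so there is no replicate check and no test between the conditions, and no p-value is given. The unit is FPKM, a fragment number divided by gene length and library size, which allows levels to be compared between genes. The deposited values implied 16240451 fragments for Control and 14857372 for AG. Of 13 B cell precursor markers, 8 were listed in Control and 5 in AG, and they summed to 2.80 and 2.89 FPKM. The 4 of them listed in both libraries summed to 2.54 FPKM in Control and 2.84 in AG. Of 13 monocyte and granulocyte markers, 6 were listed in each library, and these summed to 939 FPKM in Control and 481 in AG. In neither library was there a value for 4 of the B cell precursor markers and 7 of the monocyte and granulocyte markers. These are not read as unexpressed. The sums of the listed markers go against the pre-B label in both libraries, so the cells are named here by their label only. The lower sum in AG rests on CTSG, at 743 against 194 FPKM, while the median of the 6 markers was 56.9 in Control and 72.7 in AG. Counting intervals of the ratio lay above 1 for 3 of them (ITGAM, S100A9 and LYZ) and below 1 for 3 (CTSG, MPO and ELANE). The part of these differences in the values below was not tested. Of 16 markers of T and NK cells, red cells, adipocytes and hepatocytes, 4 were listed in either library.

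Cells build cholesterol from acetyl-CoA. The mevalonate pathway makes isoprenoid units, which are joined to squalene, and squalene is closed into a ring and trimmed to cholesterol. Fatty acids are made from acetyl-CoA by carboxylation, chain synthesis, elongation and desaturation. The transcription factors SREBP1 and SREBP2, encoded by SREBF1 and SREBF2, switch on the genes of both routes. They are held in the endoplasmic reticulum with SCAP by INSIG proteins while sterols are plentiful. LXR, a nuclear receptor for oxysterols, drives genes of sterol disposal and also SREBF1 and SCD. NF-Y, which binds the CCAAT box, and Sp1, which binds the GC box, are known partners of SREBP at many of these promoters.

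The promoters of 5 genes are shown as examples. SCD, STARD4 and INSIG1 were among the genes highest in AG relative to Control, EBP was the single member with a ratio under 1, and SREBF1 encodes the regulator. FADS1, whose ratio was above that of INSIG1, is not shown. Each window holds 250 bases before and 50 bases after the start in RefSeq, in build GRCh38.p14, 5′ to 3′ on the strand of the gene. The places are chr10:100346983-100347282 (plus strand) for SCD, chr5:111512486-111512785 (minus) for STARD4, chr7:155297628-155297927 (plus) for INSIG1, chrX:48521558-48521857 (plus) for EBP and chr17:17836937-17837236 (minus) for SREBF1. Capitals mark a CCAAT box, CCAAT on the strand shown or ATTGG where it lies on the other strand.
SCD: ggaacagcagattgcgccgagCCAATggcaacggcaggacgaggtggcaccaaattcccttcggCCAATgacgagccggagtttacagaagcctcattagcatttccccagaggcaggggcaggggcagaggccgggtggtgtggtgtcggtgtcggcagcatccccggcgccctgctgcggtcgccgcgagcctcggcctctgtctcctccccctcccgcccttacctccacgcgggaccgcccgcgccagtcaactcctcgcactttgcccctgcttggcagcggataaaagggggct
STARD4: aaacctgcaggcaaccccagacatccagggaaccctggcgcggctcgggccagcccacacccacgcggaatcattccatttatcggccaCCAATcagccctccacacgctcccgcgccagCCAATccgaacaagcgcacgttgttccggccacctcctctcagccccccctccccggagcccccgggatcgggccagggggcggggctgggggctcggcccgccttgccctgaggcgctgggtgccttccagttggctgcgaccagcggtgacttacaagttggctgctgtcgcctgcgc
INSIG1: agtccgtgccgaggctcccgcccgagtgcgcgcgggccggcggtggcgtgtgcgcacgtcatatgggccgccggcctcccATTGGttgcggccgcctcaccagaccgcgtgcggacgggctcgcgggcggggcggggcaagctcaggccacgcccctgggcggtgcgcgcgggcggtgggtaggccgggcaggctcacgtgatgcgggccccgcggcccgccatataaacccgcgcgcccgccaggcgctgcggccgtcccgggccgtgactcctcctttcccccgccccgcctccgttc
EBP: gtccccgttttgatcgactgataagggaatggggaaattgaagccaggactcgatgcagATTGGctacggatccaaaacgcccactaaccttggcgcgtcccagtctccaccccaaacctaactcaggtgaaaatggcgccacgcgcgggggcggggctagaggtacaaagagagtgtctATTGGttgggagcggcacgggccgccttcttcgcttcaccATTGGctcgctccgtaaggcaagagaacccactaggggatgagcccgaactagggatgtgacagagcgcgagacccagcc
SREBF1: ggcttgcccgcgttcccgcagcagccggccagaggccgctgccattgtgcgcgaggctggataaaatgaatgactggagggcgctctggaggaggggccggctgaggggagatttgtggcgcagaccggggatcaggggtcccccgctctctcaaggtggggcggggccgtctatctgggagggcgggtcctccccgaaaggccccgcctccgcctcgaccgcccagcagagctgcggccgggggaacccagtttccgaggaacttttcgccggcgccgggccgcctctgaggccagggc
The window of SCD held 2 CCAAT boxes, that of STARD4 held 2, that of INSIG1 held 1 and that of EBP held 3. The window of SREBF1 held 0.

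RefSeq promoter windows were matched by symbol for 29 of the 33 genes. Those without one were ACAT2, FASN, FDFT1 and SQLE. A gene with several windows was counted once, if any window held the motif on either strand. The CCAAT box was found in 23 of the 29 genes (79.3%), against 39.7% of all 27305 genes in the table and 43.9% of the 3683 expressed genes that had a window. Among the 14 genes listed in both libraries with a window, 11 held it, and CYP51A1, FADS1 and SREBF1 did not. The GC box GGGCGG was found in 14 of these 14, against 77.3% of expressed genes. The sterol regulatory element, searched as TCACNCCAC, was in 0 of the 14 and in 1.39% of all genes, and the LXR direct repeat (AGGTCA, any 4 bases, AGGTCA) was in 0 of the 14 and in 0.0256% of all genes. Letters this rare among all genes would seldom be met in 14 genes, so the 0 does not show that these elements are lacking. These searches describe letters in a short window, and no CCAAT or GC box overlap with another motif was removed. Whether the number of CCAAT boxes goes with the ratio was not tested.

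As a group, the 16 genes listed in both libraries were higher in AG. All 16 had a mean of at least 1 FPKM, the level from which a gene was called expressed, so no listed gene was lost to that filter. A difference is given as log2((AG FPKM + 1)/(Control FPKM + 1)), which understates the change of low genes. On this scale 15 of 16 were above 0, against 43.2% of 5528 expressed genes, and 1 was below 0, against 56.8%. At least 1.5-fold higher were 4 of the 16, SCD, STARD4, SREBF1 and FADS1, against 3.6% of expressed genes, and 0 were at least 1.5-fold lower, against 3.33%. The median log2 ratio of the 16 was 0.40, beside -0.03 for all expressed genes. Just inside the 1.5-fold limit stood FADS1, at 1.54-fold on this scale, and just outside it INSIG1, at 1.48-fold. With a pseudocount of 5 FPKM, 2 of the 16 were at least 1.5-fold higher, and at a 2-fold limit 0 were.

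Beside this, each gene has its plain ratio of FPKM, AG over Control, with an exact 95% Clopper-Pearson interval computed from the whole fragment numbers behind the pair of values. Such an interval covers counting error and leaves out any spread between cultures. The interval lay above 1 for 14 of the 16 genes, against 16.7% of 5384 expressed genes with recovered fragments, and below 1 for 0, against 22.9%. TM7SF2 and EBP were the genes whose interval held 1. A ratio of at least 1.2 was reached by 12 of the 16, against 13.8% of expressed genes. By log2 ratio, 12 of the 16 were in the top 10% of expressed genes and 7 were in the top 5%.

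The 4 genes past 1.5-fold, INSIG1 and FADS2 are protein-coding in GENCODE 29 (GRCh38). The minus strand holds FADS1 (ENSG00000149485) at 61799625 to 61829318 on chromosome 11, SREBF1 (ENSG00000072310) at 17810399 to 17837002 on chromosome 17 and STARD4 (ENSG00000164211) at 111496033 to 111512590 on chromosome 5. The plus strand holds SCD (ENSG00000099194) at 100347124 to 100364834 on chromosome 10, INSIG1 (ENSG00000186480) at 155297776 to 155310235 on chromosome 7 and FADS2 (ENSG00000134824) at 61792980 to 61867354 on chromosome 11. Values are for the whole gene, introns left out, under an annotation that can differ from GENCODE 29.

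**Figure D1:**
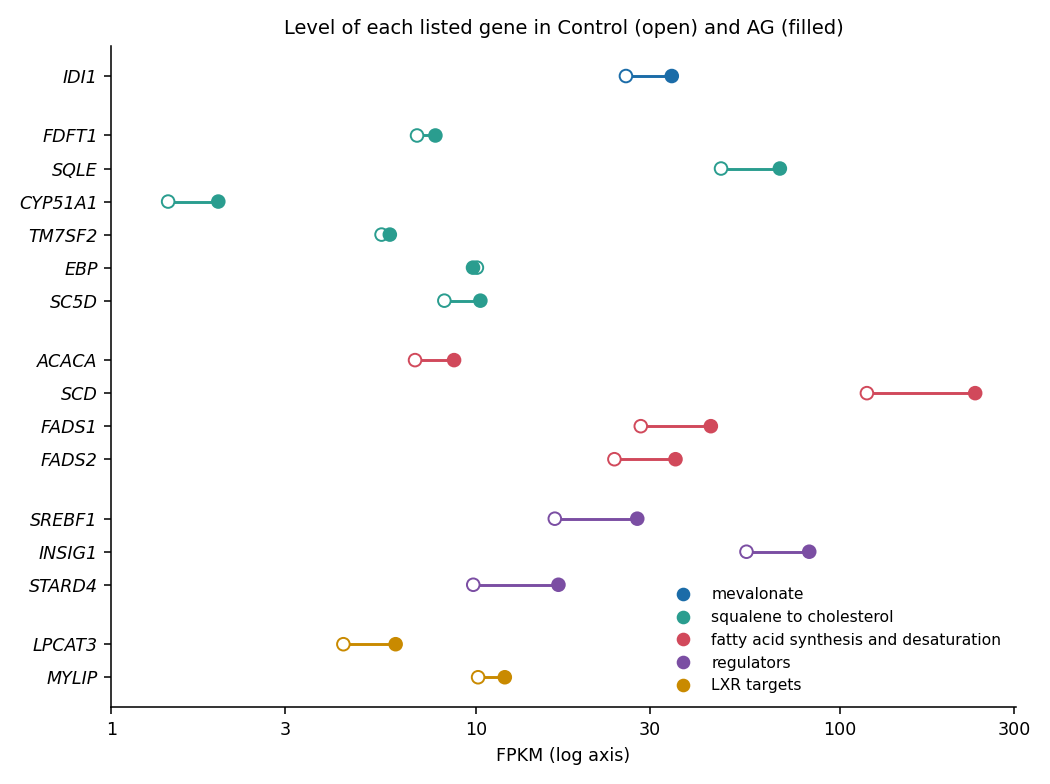
FPKM of the 16 genes listed in both libraries, on a log axis, by branch, with Control as open and AG as filled points joined by a line. AG lies to the right of Control for every gene except EBP, and SCD is the most abundant in both libraries (118 and 235 FPKM).

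The mevalonate branch was covered by a single gene with values in both libraries. IDI1, which interconverts the isoprenoid units isopentenyl and dimethylallyl diphosphate, stood at 25.8 FPKM in Control against 34.5 in AG. Its ratio was 1.34 (with a 95% counting interval of 1.25 to 1.42). The antisense gene IDI2-AS1, whose exons share 14.8% of the exon bases of IDI1, had 1.32 against 1.73 FPKM, so it was far below IDI1 in both libraries. MVK, mevalonate kinase, was listed in AG only, at 5.03 FPKM, and had no value in Control to compare with. The other 5 genes of the branch were not analysed here, so the branch as a whole is not described.

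Of 11 genes from squalene synthesis to cholesterol, 6 were listed in both libraries, with ratios from 0.976 to 1.45. The median log2 ratio was 0.22, and 4 of the 6 had a counting interval above 1, against 16.7% of expressed genes with recovered fragments. SQLE, squalene epoxidase, a rate-limiting step of the pathway, stood at 47.1 FPKM in Control against 68.3 in AG, on 3291 and 4366 fragments. Its ratio of 1.45 (1.39 to 1.52) was the largest of this branch. FDFT1, squalene synthase, which acts just before it, had 6.90 against 7.74 FPKM. The ratio of FDFT1 was 1.12 (1.0003 to 1.26), with the lower bound just above 1.

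The later enzymes of the branch were lower in level than SQLE and spread around smaller ratios. CYP51A1, lanosterol demethylase, stood at 1.43 FPKM in Control against 1.96 in AG, giving a ratio of 1.37 (1.02 to 1.86) that rested on 82 and 103 fragments. Exons of other annotated genes cover 83.2% of the exon bases of CYP51A1, so its low level and its ratio are uncertain. TM7SF2, a sterol C14 reductase, had 5.51 against 5.81 FPKM, giving a ratio of 1.05 (0.895 to 1.24). EBP, the sterol isomerase that moves the ring double bond, had 10.1 against 9.82 FPKM, giving a ratio of 0.976 (0.822 to 1.16). SC5D, the sterol C5 desaturase near the end of the pathway, had 8.19 against 10.3 FPKM, giving a ratio of 1.26 (1.17 to 1.35). The intervals of TM7SF2 and EBP lay wholly below that of SQLE, a difference beyond counting error between genes of one branch, and that of SC5D lay between those of EBP and SQLE and overlapped neither.

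**Figure D2:**
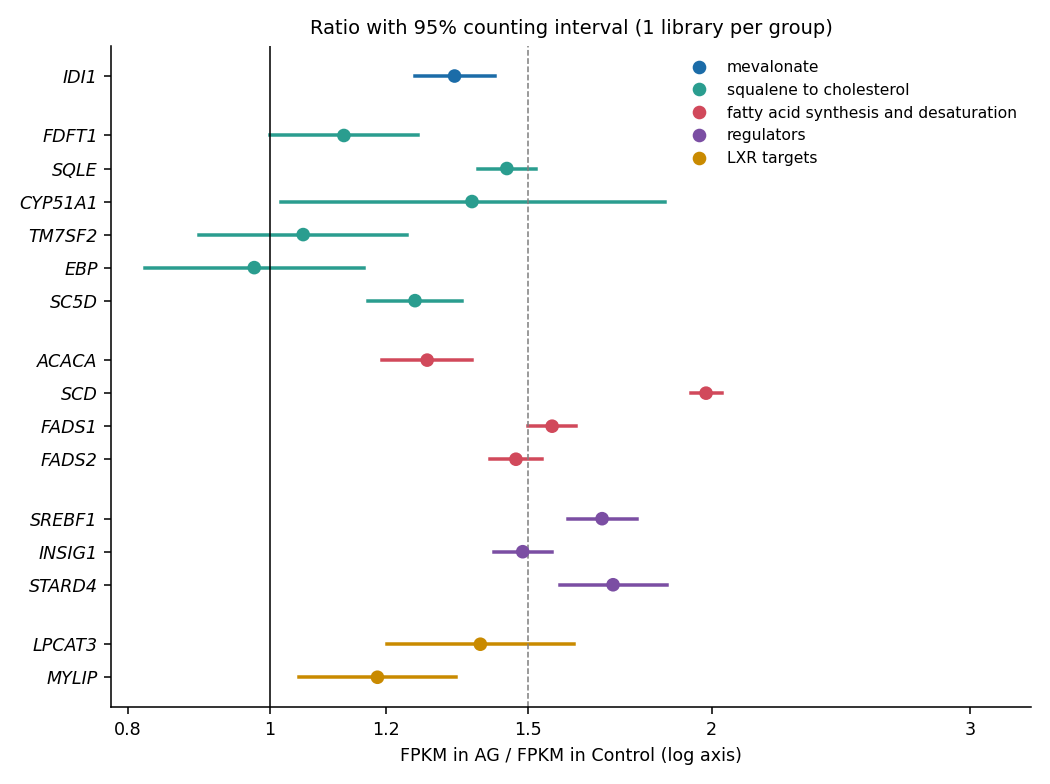
Ratio of AG to Control FPKM of the same 16 genes on a log axis, with 95% counting intervals as bars, a solid line at 1 and a dashed line at 1.5. SCD stands apart at 1.98, and the intervals of TM7SF2 and EBP cross 1.

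Fatty acid synthesis and desaturation held the largest ratio of the list. All 4 genes with values in both libraries had a counting interval above 1, against 16.7% of expressed genes with recovered fragments. Their median log2 ratio was 0.58. SCD, the stearoyl-CoA desaturase that makes monounsaturated fatty acids, stood at 118 FPKM in Control against 235 in AG. It rested on 10078 and 18274 fragments, and its ratio was 1.98 (1.93 to 2.03). SCD alone made up 31.3% of the summed FPKM of the 16 genes in Control and 38.7% in AG. Without SCD the sum went from 260 to 371 FPKM, giving a ratio of 1.43, so the higher sum in AG did not rest on SCD alone.

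FADS1 and FADS2, the delta-5 and delta-6 desaturases of polyunsaturated fatty acids, differed by similar ratios. FADS1 stood at 28.3 FPKM in Control against 44.1 in AG, giving a ratio of 1.56 (1.4997 to 1.62). FADS2 had 24.0 against 35.3 FPKM, giving a ratio of 1.47 (1.41 to 1.53), and the intervals of the pair overlapped. These neighbours on chromosome 11 lie on opposite strands and share 4.79% of the exon bases of FADS1. FEN1, a DNA replication nuclease that overlaps FADS2 on the same strand, had a ratio under 1, with 86.7 and 74.6 FPKM. ACACA, acetyl-CoA carboxylase, which makes malonyl-CoA for chain synthesis, had 6.81 against 8.71 FPKM. Its ratio of 1.28 (1.19 to 1.37) lay below those of the desaturases, and the intervals did not overlap.

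Of the regulators and sterol transport genes, 3 were listed in both libraries, and all 3 had ratios near or above 1.5. SREBF1, which encodes SREBP1, stood at 16.5 FPKM in Control against 27.7 in AG, giving a ratio of 1.68 (1.60 to 1.78). The FPKM pools its transcript forms, so SREBP1a and SREBP1c cannot be told apart. INSIG1, which retains SCAP and SREBP and is itself an SREBP target, had 55.3 against 82.2 FPKM, giving a ratio of 1.49 (1.42 to 1.56). STARD4, a carrier of sterols between membranes and a target of SREBP2, had 9.84 against 16.9 FPKM, giving a ratio of 1.71 (1.58 to 1.86). The antisense gene STARD4-AS1 was lower in AG, with 2.94 and 1.54 FPKM, giving a ratio of 0.524 (0.443 to 0.619), opposite in direction to STARD4.

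The LXR targets on the list were LPCAT3 and MYLIP, and both were higher by less than 1.5-fold. LPCAT3, which places polyunsaturated fatty acids into phospholipids, stood at 4.33 FPKM in Control against 6.02 in AG, giving a ratio of 1.39 (1.202 to 1.61). Exons of the opposite-strand genes C1S and EMG1 cover 65.6% of its exon bases. EMG1 had 9.03 against 8.82 FPKM, so it was higher than LPCAT3 in both libraries, and the counting interval of its ratio (0.887 to 1.07) held 1. MYLIP, the ubiquitin ligase IDOL that degrades the LDL receptor, had 10.1 against 12.0 FPKM, giving a ratio of 1.18 (1.05 to 1.34). Both ratios lay below those of SREBF1 and SCD, which are LXR targets as well as members of the SREBP system, although the intervals of LPCAT3 and SREBF1 overlapped.

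**Figure D3:**
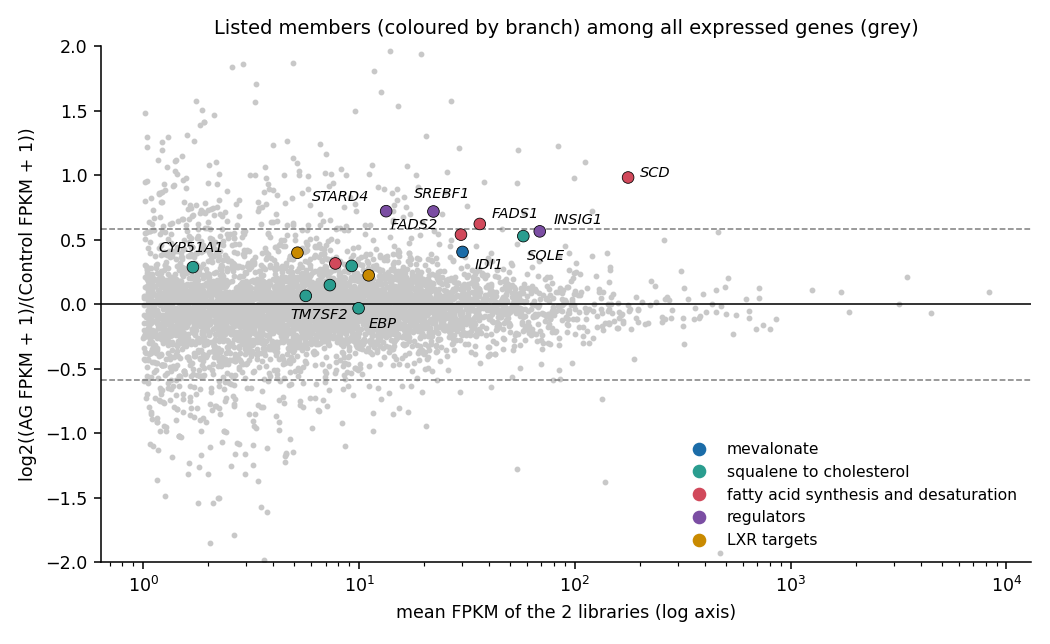
Log2 ratio against mean FPKM (log axis) for all 5528 expressed genes in grey, of which 8 lie outside the vertical range, and for the 16 members in the colour of their branch. Dashed lines mark 1.5-fold, and 15 of the 16 lie above 0.

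The genes with higher mean levels tended to have the larger ratios. The 7 members whose mean was 20 FPKM or more (SCD, INSIG1, SQLE, FADS1, IDI1, FADS2 and SREBF1) had ratios from 1.34 to 1.98, with a median of 1.49. The other 9 had ratios from 0.976 to 1.71, with a median of 1.26, and STARD4 was the highest of these. The mean takes in the AG value, so a higher AG value raises both the level and the ratio of a gene. SREBF1, at 16.5 FPKM in Control and 27.7 in AG, had a mean of 20 FPKM or more only through AG. Across the 16 genes, Spearman's rho between mean FPKM and ratio was 0.62, and across all expressed genes it was 0.06, both given as descriptions over genes that share the same 2 libraries. Among the 1003 expressed genes whose mean was 20 FPKM or more the median ratio was 0.981, and 6.98% had a ratio of at least 1.2.

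Genes next to these in the pathway lay near the background of all expressed genes, of which 93.1% were within 1.5-fold. Of 18 other sterol genes, 7 were expressed and all 7 were within 1.5-fold. By log2 ratio, 2 of the 7 were above 0 and 5 below, against 43.2% and 56.8% of expressed genes, with a median of -0.11. The 2 with the lowest ratios act in the control and storage of sterol. ERLIN1, a sterol-binding protein of the endoplasmic reticulum, had 67.5 against 57.1 FPKM, and SOAT1, which esterifies cholesterol for storage, had 12.3 and 10.5.

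Of 28 other genes of fatty acid synthesis and elongation, 11 were expressed, 0 of them were past 1.5-fold, against 3.6% of expressed genes higher and 3.33% lower, and their median log2 ratio was -0.03, the same as over all expressed genes. ME1, malic enzyme, which supplies NADPH for lipid synthesis, had the highest ratio, with 10.1 FPKM in Control and 13.1 in AG. ELOVL1, an elongase of very long chains, came next with 70.7 and 81.9 FPKM. FADS3, a desaturase relative of FADS1 and FADS2, had 1.18 against 0.920 FPKM, giving a ratio of 0.777 (0.582 to 1.03). This interval held 1, so the direction is uncertain, but it lay wholly below the intervals of FADS1 and FADS2. HACD1, a dehydratase of elongation, had the lowest ratio, with 1.55 and 1.08 FPKM. SCD5, the second stearoyl-CoA desaturase, was chosen after its values were seen. It had 2.49 against 2.08 FPKM, giving a ratio of 0.837 (0.662 to 1.06), far below SCD in level.

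Of 10 other LXR targets and receptors, 2 were expressed. SMPDL3A, a phosphodiesterase induced by LXR in macrophages, stood at 3.49 FPKM in Control against 9.63 in AG, giving a ratio of 2.76 (2.25 to 3.402). RXRB, a partner receptor of LXR, had 9.65 against 7.67 FPKM, giving a ratio of 0.794 (0.701 to 0.899). ABCG1, a sterol exporter and LXR target, was below the level called expressed and was chosen after its values were seen. It had 0.0805 FPKM on 8 fragments in Control and 1.00 FPKM on 91 fragments in AG, giving a ratio of 12.4 (6.05 to 29.7). The ratios of SMPDL3A and ABCG1 were thus larger than those of LPCAT3 and MYLIP.

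**Figure D4:**
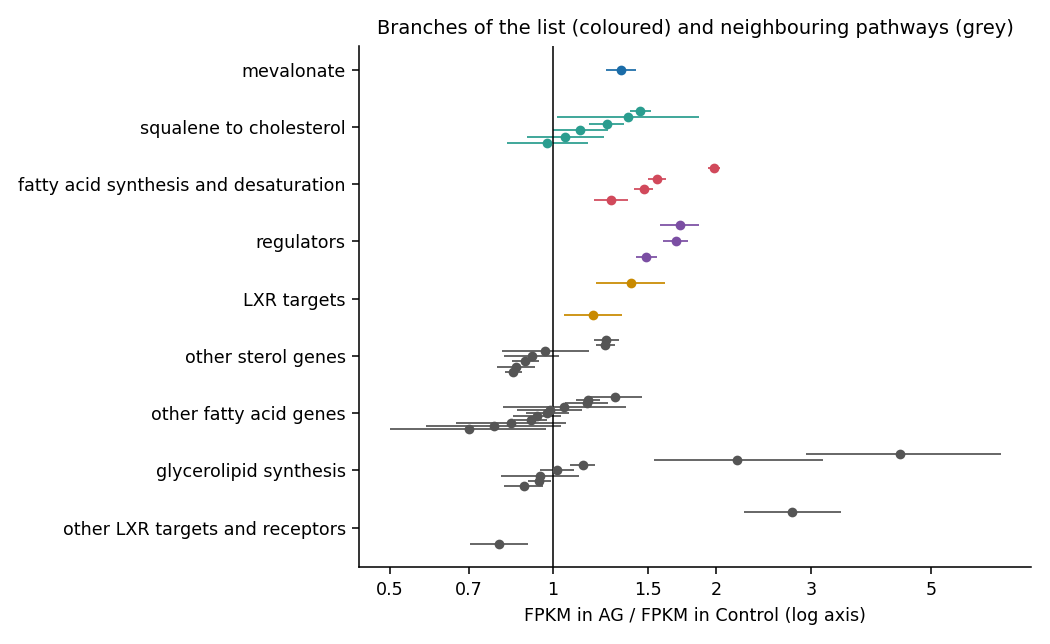
Ratio of AG to Control FPKM (log axis) with 95% counting intervals for the expressed genes of each branch in colour and of 4 neighbouring gene lists in grey. The coloured points lie to the right of 1 except EBP, and the grey points lie on both sides.

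With a single culture in each group, a difference caused by 1,5-AG and any other difference between the cultures cannot be told apart. In these bulk libraries, a changed share of cells and a changed amount of RNA per cell cannot be told apart either.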

How the data were processed

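The deposited values are FPKM per Ensembl gene, computed by the authors. Per the submitters' processing notes, HISAT2, HTSeq, Cufflinks and Trimmomatic were used with hg38, and no version is stated. The sources used here give neither annotation release nor strand setting, so reads of overlapping genes cannot be told apart. The files hold no zeros.

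Totals were taken from single-transcript genes, whose FPKM times GENCODE 29 exon length gave whole fragments within 0.01 for 88.4% of 5315 genes in Control and 88.1% of 5259 in AG. For other genes the shared length nearest to that of GENCODE 29 that made both values whole was used, which succeeded for 97.4% of expressed genes. Where multiples of a length also worked, the interval depends on this choice. For SC5D the length used, 10054 bases, exceeds the 5566 of GENCODE 29. Exon sharing between genes is by GENCODE 29.

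Members, lists, motifs and alternatives were chosen with earlier results of these data known. All members could be named, and of each other list the 2 expressed genes with the highest and the 2 with the lowest ratio. The values of some genes under this rule are not reported here. Other settings tried were a pseudocount of 0.1 or 5 FPKM, stricter or no filters, scaling to a common total or by the median of ratios, and a 2-fold limit. The counting intervals and the recovery of fragment numbers were tested on simulated data. The true gene lengths and totals were given there, so how these were found was not tested. Computation used pandas 2.3.3, scipy 1.17.1 and numpy 2.4.6 in Python 3.11.15, and matplotlib 3.10.9 for drawing.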

Additional observations from a re-analysis of the deposited data

How the results depend on the processing

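The number of members at least 1.5-fold higher in AG was 4, and it was 2 with a pseudocount of 5 FPKM (SCD and SREBF1) and 0 at a 2-fold limit, both because these settings are stricter by construction. It was 5 when scaled by the median of ratios and 4 under the other alternatives for which it was counted, which do not include leaving out SCD. The number at least 1.5-fold lower was 0 under every alternative run. The median log2 ratio of the members, 0.40, ranged from 0.30 (pseudocount of 5 FPKM) to 0.53 over the alternatives. The value of 0.53 was found without 3 members, IDI1, CYP51A1 and LPCAT3, that share over 10% of their exon bases with other genes, and without SCD the median was 0.40. These last 2 alternatives were added after seeing the data. EBP, at -0.03, was at 0.00047 when scaled by the median of ratios, so that 16 of 16 members were above 0. Those above 0 were 14 of 15 with a mean of at least 5 FPKM, where CYP51A1 drops out, and 15 of 16 under the other planned settings. The median of ratios raised the log2 ratios of the members by 0.024 to 0.036. No paired analysis was possible because each group has 1 library. CYP51A1 is the member most limited by depth.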

Other observations

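Genes of glycerolipid synthesis, the route that uses the fatty acids made above, differed among themselves. Of 16 genes on that list, 7 were expressed. On the log2(FPKM + 1) scale 1 of these, GPAT3, was higher in AG by 1.5-fold or more, against 3.6% of expressed genes, and 0 were lower by as much, against 3.33% (median log2 ratio 0.02). GPAT3, an acyltransferase of the first step, stood at 0.527 FPKM in Control against 2.30 in AG, giving a ratio of 4.37 (with a 95% counting interval of 2.93 to 6.71). AGPAT5, an acyltransferase of the second step, had 0.642 against 1.40 FPKM on 49 and 98 fragments, giving a ratio of 2.19 (1.54 to 3.15), which the pseudocount brings to 1.46-fold on that scale. GPAT3 and AGPAT5 were under 1 FPKM in Control and were called expressed only through their AG values. The count of genes past 1.5-fold therefore depends in part on that filter. The most abundant gene of the list, AGPAT2, had 89.9 against 102 FPKM, giving a ratio of 1.13 (1.07 to 1.196), and it was chosen after its values were seen. The lowest ratios were those of CEPT1, a phospholipid synthesis enzyme, at 9.47 and 8.36 FPKM, and AGPAT3, at 17.5 and 16.5 FPKM. GPAT3 and AGPAT5 were low in level, unlike SCD, SQLE and INSIG1. A gene under 1 FPKM in Control could pass the filter only with a higher AG value. No link of low level with large ratio is therefore read from these genes.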
